A study of Mus musculus with 2 samples.

Results

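The genes of the cytosolic chaperonin CCT (also called TRiC) were followed through adult mouse spermatogenesis: *Tcp1*, *Cct2*, *Cct3*, *Cct4*, *Cct5*, *Cct6a*, *Cct6b*, *Cct7* and *Cct8*, 9 of the 50686 genes among the 51868 rows of the count matrix. They were chosen by name, as the rows carrying these symbols, and all 9 were found and passed the filter on low counts. Single cells had been prepared from the testes of 2 wild-type C57Bl/6J Crl mice of 8 weeks of age and profiled with a droplet method that tags the 3' end of each captured RNA molecule with a unique molecular identifier (UMI). Mouse 1 gave 1237 cells and 27450497 UMIs and mouse 2 gave 1315 cells and 30302332 UMIs, with medians of 17871 and 19184 UMIs per cell. No cell barcode was shared between the mice. There was 1 condition, so the comparisons run along the course of germ cell development.

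CCT is built from paired rings in which every position is taken by a different, related subunit. It binds newly made proteins, closes over them with the use of ATP and releases them folded, and actin and tubulin are its best known clients. The subunits are needed together, and the zeta position alone has a pair of genes in mammals: *Cct6a*, used in most tissues, and *Cct6b*, known for its expression in testis. Tubulin is in heavy demand in male germ cells, which build meiotic spindles, the manchette that shapes the spermatid head, and the sperm tail.

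The zeta pair carried the clearest contrast in these data, so the sequence around the start of each of both genes is shown first, from 250 bases before the RefSeq start to 30 bases after it (RefSeq, build GRCm38.p6). The *Cct6a* window lies at chr5:129787106-129787385 on the plus strand and the *Cct6b* window at chr11:82764292-82764571 on the minus strand, each printed 5' to 3' on the strand of its gene. Capitals mark every TGACG or CGTCA (the core of the CRE, the element bound by factors of the CREB/CREM family) and every CCAAT or ATTGG (the CCAAT box), on either strand.
Cct6a: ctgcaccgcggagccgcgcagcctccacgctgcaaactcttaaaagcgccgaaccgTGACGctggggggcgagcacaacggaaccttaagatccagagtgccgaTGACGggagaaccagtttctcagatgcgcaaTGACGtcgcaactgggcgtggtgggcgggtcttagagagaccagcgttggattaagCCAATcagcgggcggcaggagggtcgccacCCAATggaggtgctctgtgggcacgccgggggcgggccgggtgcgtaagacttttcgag
Cct6b: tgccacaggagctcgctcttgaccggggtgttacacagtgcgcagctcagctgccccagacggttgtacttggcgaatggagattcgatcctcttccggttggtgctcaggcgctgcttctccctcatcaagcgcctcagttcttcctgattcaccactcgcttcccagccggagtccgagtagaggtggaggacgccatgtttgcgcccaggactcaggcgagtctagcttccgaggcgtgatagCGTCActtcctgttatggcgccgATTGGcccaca
The *Cct6a* window held 3 CRE cores and 2 CCAAT boxes, all before the start, and 3 copies of the GC box GGGCGG or CCGCCC. The *Cct6b* window held 1 CRE core, which ran across the start, 1 CCAAT box just after it, and no GC box. Of 32851 mouse promoter windows of 300 bases, 20.8% held the CRE core, 37.4% the CCAAT box and 35.7% the GC box. Windows were found for 8 of the 9 members, 10 windows in all; *Cct4* was not matched. The CRE core was found in 2 of the 10 windows, those of *Cct6a* and *Cct6b*, a share close to the 20.8% of all windows. The heat shock element (GAA and TTC with any 2 bases between) was present in 7.86% of all windows. Among the 10 windows it was found in 1 of the pair of *Cct2* windows and in no other. These are matches of letters, and no factor was measured at them.

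The members lie at separate loci (GRCm38, GENCODE M21). *Tcp1* spans chr17:12915701-12925067, *Cct2* chr10:117051001-117063814, *Cct3* chr3:88297116-88321767, *Cct4* chr11:22990519-23003780 and *Cct5* chr15:31590800-31601804. *Cct6a* spans chr5:129786998-129846371, *Cct6b* chr11:82719250-82764321, *Cct7* chr6:85451514-85468475 and *Cct8* chr16:87483326-87495873. *Cct6b* and *Cct4* share a chromosome but are not neighbours. The longest run of bases that transcripts of *Cct6a* and *Cct6b* had in common was 20, shorter than the 98-base reads, so reads of both genes could be told apart. *Tcp1* and *Cct3* shared runs of 55 and 60 bases with the pseudogenes *Tcp1-ps1* and *Cct3-ps1*, which were listed with 3 UMIs and 0 UMIs in all cells. On the opposite strand, *Tcp1* overlaps *Mrpl18* and *Acat3*, *Cct6a* overlaps *Psph*, *Cct7* overlaps *Pradc1* and *Cct8* overlaps *Usp16*. *Cct6b* spans the processed pseudogenes *Gm11421* and *Gm11422* on the opposite strand and *Gm11420* on its own strand. *Tcp1* and *Cct6a* also span small nucleolar RNA genes on their own strand.

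Cells were placed in 9 clusters by K-means without the members or related chaperonin genes, and clusters were named from marker genes. Germ cells formed 6 large clusters, given here in order of pseudotime (a position along the main path of gradual change): early spermatocyte-like (53 cells of mouse 1 and 111 of mouse 2), pachytene spermatocyte-like (307 and 219), early round spermatid-like (309 and 380), round spermatid-like (189 and 259), and elongating or condensing spermatid-like, in a larger (284 and 230) and a smaller (86 and 107) cluster. Late meiotic markers scored close to pachytene ones in the pachytene spermatocyte-like cluster (pachytene cells for short), at 0.671 against 0.748. By count, 7 of 11 late meiotic markers passed there, against 7 of 14 pachytene ones. In the smaller elongating cluster 11 of 14 round spermatid markers also passed. The elongating clusters could hardly be ordered, with median pseudotimes of 0.896 for the larger and 0.899 for the smaller in mouse 1, and of 0.905 and 0.911 in mouse 2. Sertoli-like (7), spermatogonium-like (6) and Leydig-like (5) cells were too few for a test.

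Among the 6 large clusters, CCT RNA was most abundant in pachytene spermatocyte-like cells and least abundant in the larger elongating cluster. The 8 subunits other than *Cct6b* together took 5927 CPM (UMIs in every 1000000 UMIs of the group) in mouse 1 and 6060 in mouse 2 in early spermatocyte-like cells, 6533 and 6770 in pachytene cells, and 5690 and 5720 in early round spermatid-like cells. Round spermatid-like cells held 4127 and 4281 CPM. In the larger elongating cluster they took 1053 and 1199 CPM, and in the smaller 2058 and 2201. The means were 6652 ± 168 in pachytene cells and 1126 ± 103 in the larger elongating cluster (SD, n = 2 mice), and between these clusters the values of the mice did not overlap. Per cell, which also reflects the RNA content of a cell and how much of it was captured, the mean of the sum was 222 and 230 UMIs in pachytene cells and 13.4 and 16.4 UMIs in the larger elongating cluster. Total UMIs per cell, given here as medians and not as means, moved the same way. They were 19866 and 22017 in pachytene cells and 11304 and 12453 in the larger elongating cluster.

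The subunits are needed in equal numbers in the complex, but their UMIs were far from equal. Each UMI stands for 1 captured molecule whatever its length, so levels can be set side by side, although the capture of each RNA is unknown. *Tcp1*, the alpha subunit, was the highest of the 9 in every large cluster, with 2383 CPM in mouse 1 (95% Poisson interval 2354 to 2413) and 2512 in mouse 2 (2476 to 2548) in pachytene cells, where it made up 36.5% and 37.1% of the 8-subunit sum. *Cct6a* was the lowest of the 8 in all 6 large clusters and in both mice. *Cct7* (eta) came second among the 8 in each of them, with 1124 and 1107 CPM in pachytene cells. *Cct4* (delta) followed at 975 and 1018 CPM there, *Cct5* (epsilon) at 693 and 712, and *Cct3* (gamma) at 694 and 725. *Cct3* and *Cct5* were so close in pachytene cells that they cannot be ranked.

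**Figure D1:**
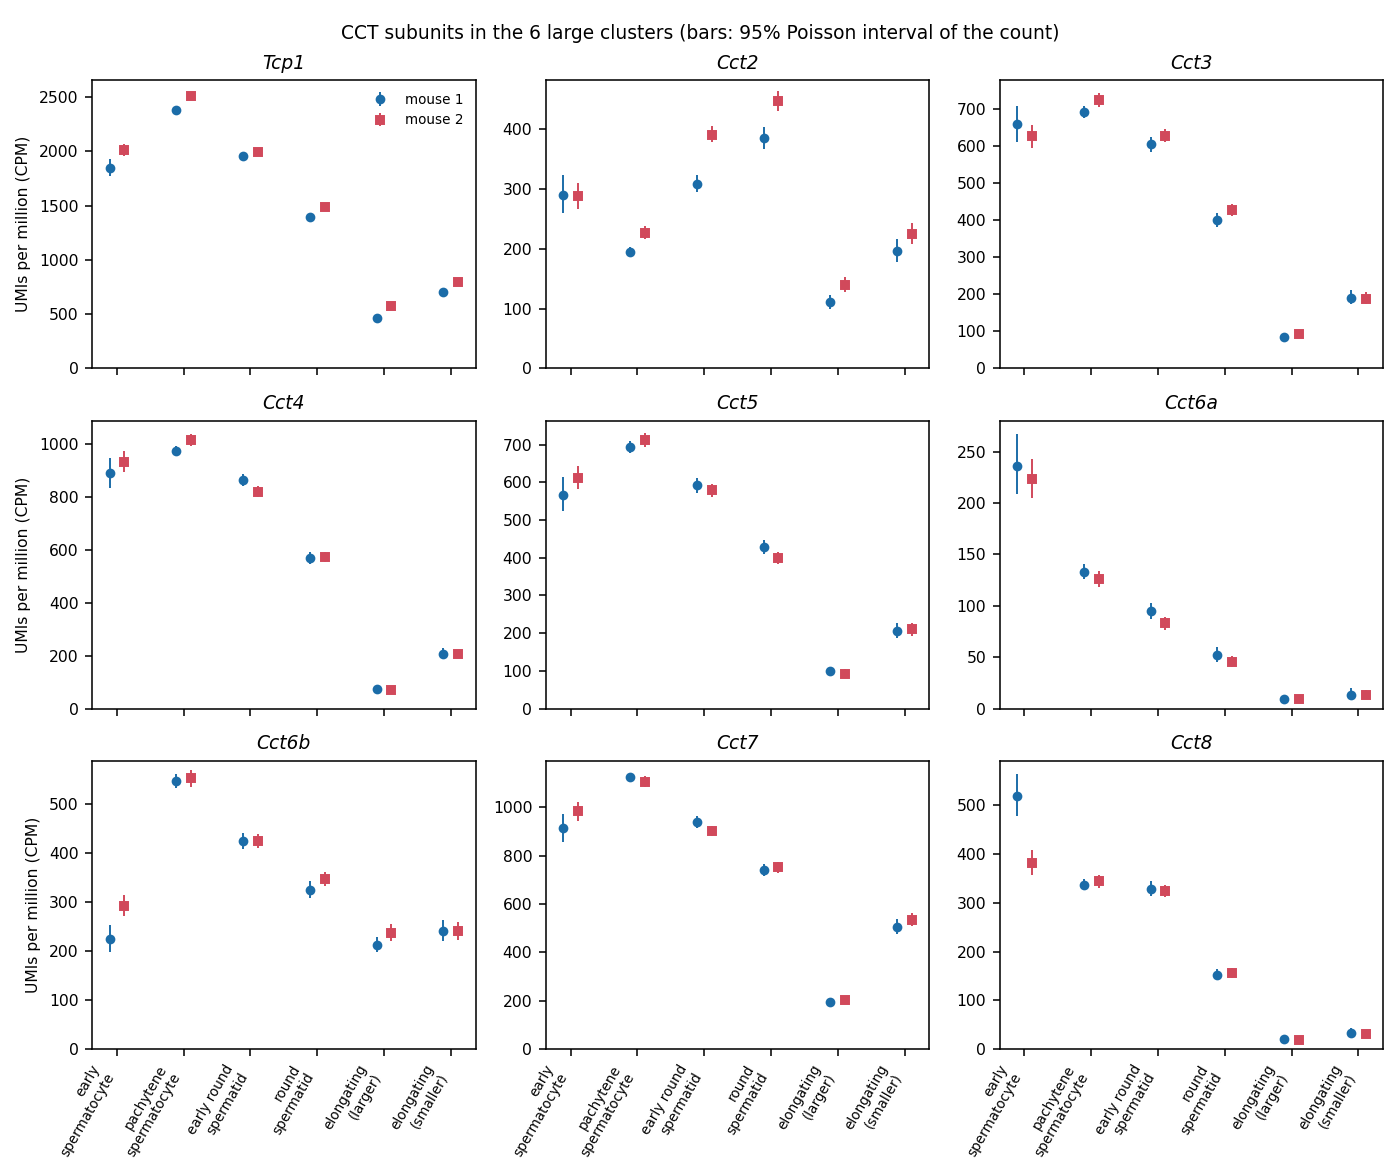
CPM (linear axes from 0) of each CCT gene in the 6 large clusters, with 1 point per mouse and bars for the 95% Poisson interval, which covers counting error only. Most genes are highest in pachytene cells and lowest in the larger elongating cluster; *Cct2* is highest in round spermatid-like cells, at 386 and 447 CPM, and *Cct6a* and *Cct8* are highest in early spermatocyte-like cells.

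The zeta genes moved in opposite directions from early spermatocyte-like to pachytene cells. *Cct6a* stood at 236 CPM in mouse 1 and 223 in mouse 2 in early spermatocyte-like cells, 133 and 126 in pachytene cells, 94.8 and 82.8 in early round spermatid-like cells, and 52.2 and 45.2 in the round spermatid-like cluster. It was down to 9.43 CPM (34 UMIs, 95% Poisson interval 6.53 to 13.2) and 8.92 CPM (28 UMIs, 5.92 to 12.9) in the larger elongating cluster, and 13.6 and 13.2 in the smaller. The level was thus lower in each cluster than in the one before it up to the larger elongating cluster, and the mice did not overlap in any of these steps. *Cct6b* instead went from 224 CPM (197 to 254) and 293 CPM (272 to 315) in early spermatocyte-like cells to 547 and 553 in pachytene cells. It then stood at 425 in both mice in early round spermatid-like cells, 325 and 347 in the round spermatid-like cluster, 213 and 237 in the larger elongating cluster, and 241 in both mice in the smaller.

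As a share of the UMIs of the pair, *Cct6b* made up 48.7% (exact binomial 95% interval 44.3 to 53.2, 503 UMIs) in mouse 1 and 56.7% (53.9 to 59.5, 1250 UMIs) in mouse 2 in early spermatocyte-like cells. It made up 80.4% and 81.5% in pachytene cells, 81.7% and 83.7% in early round spermatid-like cells, and 86.2% and 88.5% in the round spermatid-like cluster. The larger elongating cluster reached 95.8% (94.1 to 97.0) and 96.4% (94.8 to 97.6), and the smaller 94.7% and 94.8%. As a mean over the mice this was 52.7% ± 5.67 at the start and 96.1% ± 0.444 in the larger elongating cluster (SD, n = 2). The share does not depend on how the libraries are scaled. Between pachytene and early round spermatid-like cells the means, 80.9% ± 0.710 and 82.7% ± 1.37, were closer together than the mice were in early spermatocyte-like cells. The 2 mice differed most in early spermatocyte-like cells, where mouse 2 also gave 111 of the 164 cells.

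With both zeta genes added together, zeta RNA was within the range of the other subunits throughout, at 461 and 516 CPM in early spermatocyte-like cells, 680 and 679 in pachytene cells, and 378 and 392 in the round spermatid-like cluster. In the larger elongating cluster the sum was 222 and 246 CPM, against a median of 99.9 and 92.7 CPM for the other 7 subunits. Counted as 1 subunit in this way, zeta ranked 6 or 7 of 8 in the clusters up to round spermatid-like cells, 2 of 8 in the larger elongating cluster and 3 of 8 in the smaller. *Cct6a* alone ranked 8 of 8 in all of them.

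**Figure D2:**
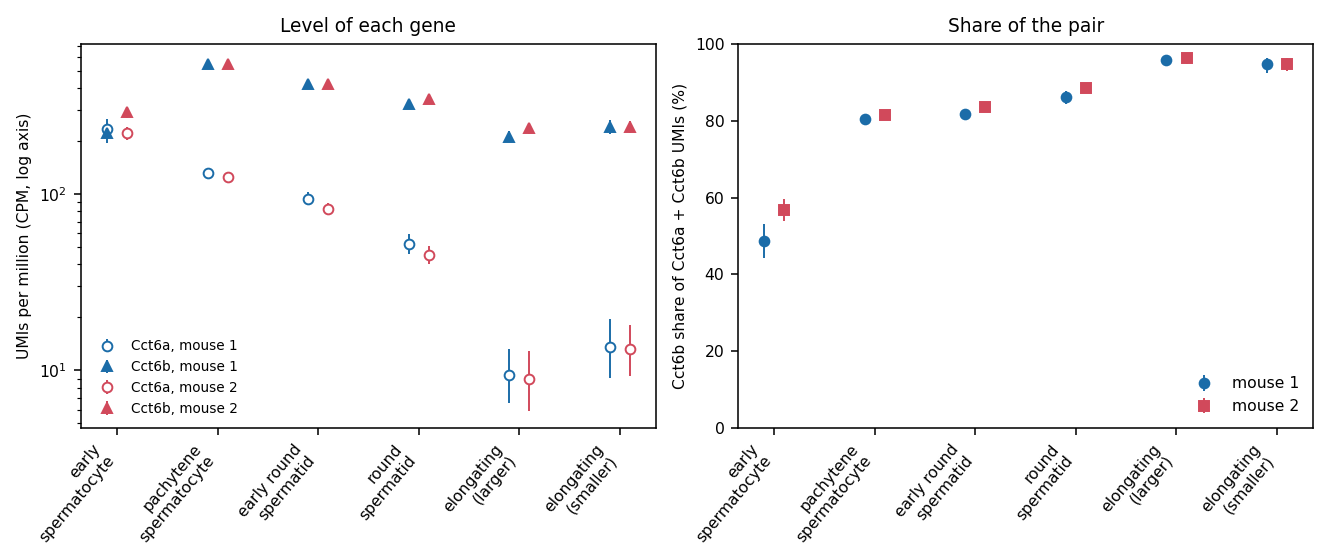
Left, CPM (log axis) of *Cct6a* (open circles) and *Cct6b* (filled triangles) in the 6 large clusters by mouse, with 95% Poisson intervals; right, the *Cct6b* share of the UMIs of the pair, with exact binomial 95% intervals. In early spermatocyte-like cells *Cct6b* makes up 48.7% and 56.7% of the pair, and the share reaches 95.8% and 96.4% in the larger elongating cluster.

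UMI counts were then summed per mouse and cluster, and each cluster was compared with the one before it by edgeR's quasi-likelihood test. Benjamini-Hochberg adjustment ran over the 14143 rows tested, with a threshold of 0.05. Repeat rows were not left out, so "all genes" and "genes tested" below stand for genes and repeat rows together. TMM factors, which set the bulk of genes to no change, ran from 1.65 in early spermatocyte-like cells down to 0.487 in the larger elongating cluster. Scaled by total UMIs without these factors, the median log2 fold change of all genes moved by -0.24, -0.06, -0.25, -1.08 and 0.60 in the 5 comparisons, in developmental order. Fold changes below are on the TMM scale, that is, relative to the bulk of genes, and the value on total UMIs is given where it ends or turns a call. The share of calls that were higher also moved, from 51.0% to 38.9% in pachytene cells, from 56.1% to 40.3% in round spermatid-like cells, from 45.5% to 18.9% in the larger elongating cluster and from 59.1% to 85.9% in the smaller.

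From early spermatocyte-like to pachytene cells, *Cct6b* rose 2.51-fold (log2 fold change 1.33 ± 0.15 SE, adjusted p = 2e-07), and on total UMIs the log2 fold change was 1.07 ± 0.13 (adjusted p = 1.37e-06). *Cct6a* fell, with a log2 fold change of -0.56 ± 0.13 (adjusted p = 0.00134) and of -0.83 on total UMIs, but without a filter on low counts it was not called (-0.33, adjusted p = 0.186). In all, 6 of the 9 members rose, where 25.5% of all genes tested rose, and 1 fell, where 24.6% fell. Besides *Cct6b*, the 6 were *Tcp1* (log2 fold change 0.60), *Cct5* (0.51), *Cct7* (0.49), *Cct3* (0.41) and *Cct4* (0.39). On total UMIs only *Tcp1* (0.34, adjusted p = 0.03) and *Cct6b* were called higher, and *Cct2* (-0.46) and *Cct8* (-0.40) joined *Cct6a* as lower. With RLE scaling, *Cct6b* was the 1 member called higher, and *Tcp1* (0.31, adjusted p = 0.0649), *Cct3* (0.11), *Cct4* (0.09), *Cct5* (0.22) and *Cct7* (0.20) were not called. Of the 14143 genes tested, 2833 were higher and 4444 lower on total UMIs, and 2750 and 4526 with RLE scaling. *Cct3* and *Cct4* also lost their calls with DESeq2 and after thinning. *Cct8* (theta) stood at 519 and 382 CPM in early spermatocyte-like cells and 337 and 344 in pachytene cells, and its change depended on the mouse, with a log2 fold change of 0.01 without mouse 1 and -0.26 without mouse 2.

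Early round spermatid-like cells differed from pachytene cells in *Cct2* and *Cct6a*. *Cct2*, the beta subunit, stood at 194 and 227 CPM in pachytene cells and 309 and 391 CPM in early round spermatid-like cells, and the groups did not overlap. It rose 1.74-fold (log2 fold change 0.80 ± 0.15, adjusted p = 0.000112), and by 0.74 on total UMIs (adjusted p = 0.000188). *Cct6a* fell further (-0.49 ± 0.13, adjusted p = 0.00292; 0.106 after thinning), and the other 7 members were not called. This is 1 member higher, beside 31.8% of all genes, and 1 lower, beside 30.5%. The number of members lower was 3 with the mouse as a block (*Cct6b* and *Tcp1* added), 5 on total UMIs, and 7, that is every member but *Cct2* and *Cct8*, without the 25 cells called as doublets, 9 of them early round spermatid-like. Of all genes tested, 4933 of 14143, 4739 of 14143 and 5358 of 14090 were lower under these settings, against 4318 of 14143 in the main fit. Leaving out the doublets also moved the share of all calls that were higher from 51.0% to 42.3%.

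*Cct2* was called higher once more in round than in early round spermatid-like cells, at 386 and 447 CPM against 309 and 391 (log2 fold change 0.50 ± 0.15, adjusted p = 0.0112). The CPM was higher in round spermatid-like cells within each mouse, while the values of the mice overlapped between the clusters, and on total UMIs the change was 0.25 (adjusted p = 0.144). *Cct8* fell 1.79-fold, from 329 and 324 CPM to 152 and 155 (-0.84 ± 0.13, adjusted p = 1.17e-05), the largest fall of a member in this comparison. *Cct6a* (-0.62, adjusted p = 0.000813) and *Cct3* (-0.33, adjusted p = 0.037; lost under RLE scaling, without a filter and in a pair of other clusterings) also fell. The count was 1 member higher, beside 25.6% of all genes, and 3 lower, beside 20%. *Cct4* missed the threshold (-0.31, adjusted p = 0.05), and with the mouse as a block *Cct4* and *Cct5* were called as well, giving 5 lower. On total UMIs 8 members were lower, all but *Cct2*, beside 4567 of the 14143 genes tested. With the block 3409 of these genes were lower, and in the main fit 2834.

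The largest changes came with the elongating cells. In the larger elongating cluster all 8 ubiquitous subunits fell from round spermatid-like cells, where 31.8% of all genes fell, and by unequal amounts. *Cct8* went from 152 and 155 CPM to 19.4 (95% Poisson interval 15.1 to 24.5) and 17.8 (13.5 to 23.2), a log2 fold change of -1.94 ± 0.16 (adjusted p = 4.91e-10). *Cct4* went from 570 and 573 CPM to 73.8 and 70.7 (-1.88 ± 0.14, adjusted p = 8.35e-11). *Cct6a* (-1.30), *Cct3* (-1.13), *Cct5*, *Cct7* (-0.82) and *Cct2* (-0.63) followed, and the call of *Cct2* was lost with RLE scaling and with DESeq2 (-0.37 with each). *Tcp1* fell least, from 1398 and 1484 CPM to 462 and 576 (-0.37 ± 0.15, adjusted p = 0.0432), and its call was lost under 5 of the 11 alternatives, over which the adjusted p ran from 6.89e-09 to 0.543. *Tcp1* thereby made up 43.9% and 48.0% of the 8-subunit sum, against 33.9% and 34.7% in round spermatid-like cells.

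*Cct6b* was the 1 member called higher in the larger elongating cluster, beside 26.5% of all genes (log2 fold change 0.52 ± 0.15, adjusted p = 0.00446), but on total UMIs the sign turned and it was called lower (-0.58 ± 0.12, adjusted p = 0.000425), and without a filter on low counts it was not called (0.16, adjusted p = 0.595). Its CPM was 213 and 237, below the 325 and 347 of round spermatid-like cells. Its log2 fold change was above that of each of the other 8 members, an order that the scaling of a library cannot alter.

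**Figure D3:**
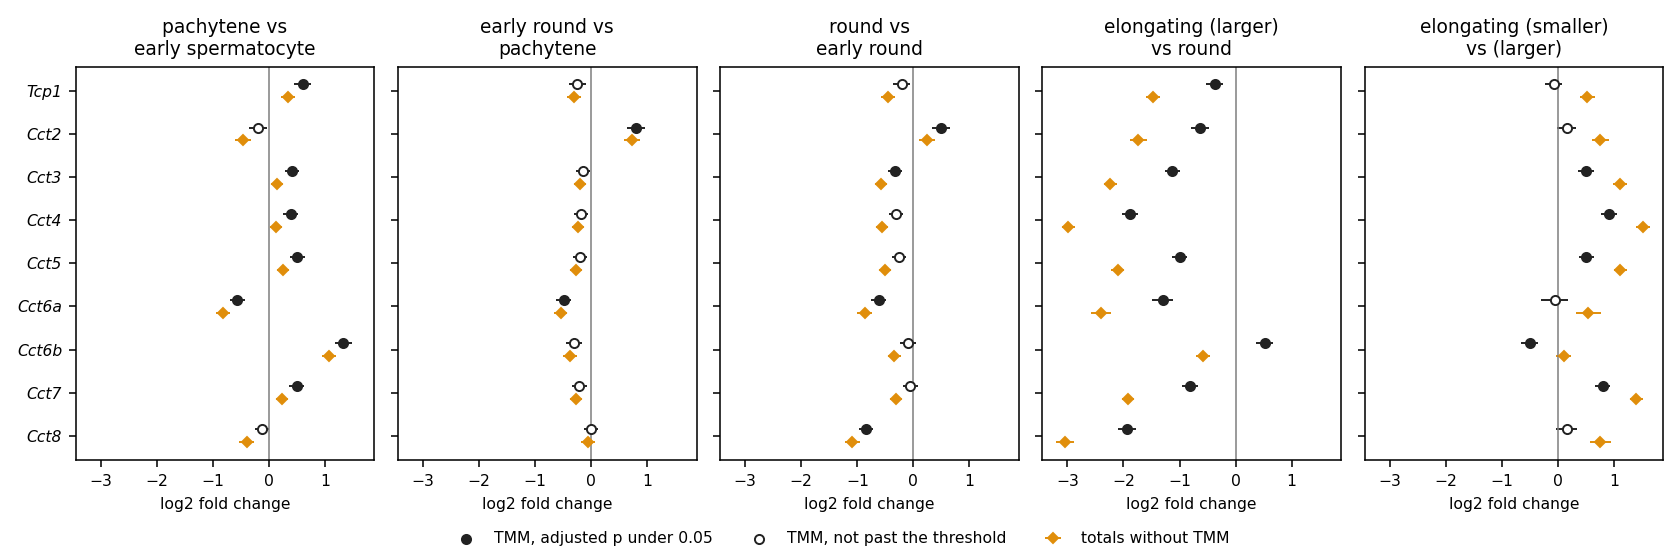
log2 fold change of each member in the 5 comparisons of adjacent clusters, with bars for ± 1 SE. Black points use TMM scaling, filled where the adjusted p is under 0.05 and open otherwise; orange diamonds use total UMIs without TMM factors. *Cct6b* in the larger elongating cluster turns from 0.52 to -0.58 between the scales, which differ by about the same amount for every gene of a comparison.

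The smaller elongating cluster held more CCT RNA than the larger. *Cct7* stood at 506 and 536 CPM there against 194 and 201 (log2 fold change 0.80 ± 0.14, adjusted p = 6.98e-05), and *Cct4* at 208 and 206 against 73.8 and 70.7 (0.92 ± 0.14, adjusted p = 1.61e-05). *Cct3* (0.51) and *Cct5* (0.51) were also higher, which makes 4 members beside 23.5% of all genes, but neither was called after thinning (adjusted p = 0.0941 and 0.106), with RLE scaling or without a filter on low counts. *Cct6b* was the 1 member lower (-0.50, adjusted p = 0.0112), beside 16.2% of all genes, but on total UMIs it turned to 0.10 (adjusted p = 0.559) and *Tcp1* turned from -0.07 to 0.53. *Cct8*, at 33.5 and 30.0 CPM, and *Cct6a*, at 13.6 and 13.2, were not called (adjusted p = 0.538 and 0.909), and on total UMIs *Cct8* was called higher (0.76, adjusted p = 0.00303). The cells of the smaller cluster were deeper, with median UMIs of 24178 and 23567 against 11304 and 12453. After thinning to 5000 UMIs per cell *Cct4* and *Cct7* were still called, and they were called under all 11 alternatives.

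Because the order of both elongating clusters was uncertain, the smaller was also set against round spermatid-like cells, a comparison chosen after the data were seen. There 7 members were lower, beside 20.5% of all genes, and 0 were higher, beside 23.3%, with edgeR, also at an unadjusted p under 0.05, and with DESeq2. *Cct8* was again the lowest relative to round spermatid-like cells (-1.78 ± 0.16, adjusted p = 2.59e-09), then *Cct6a* (-1.36) and *Cct4* (-0.96). *Cct7* (-0.02, adjusted p = 0.94) and *Cct6b* (0.02, adjusted p = 0.924) were not called, and on total UMIs both were lower, at -0.52 and -0.48. *Cct8* and *Cct6a* were therefore low in both elongating clusters, and *Cct7* was called lower only in the larger one; that the clusters differ in *Cct7* is the comparison given above.

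Along pseudotime, cut into 12 bins, the members peaked at different points. *Cct6a* was highest in bin 1 in both mice (202 and 200 CPM). *Cct6b* was highest in bin 3 in both (564 and 580 CPM). *Tcp1*, *Cct3*, *Cct4*, *Cct5* and *Cct7* peaked in bins 2 to 4. *Cct2* was lowest of the first 8 bins in bin 3 (188 and 220 CPM) and highest in bin 8 (413 and 463 CPM) in both mice, later than any other member. In that bin *Cct8* was already down to 165 and 170 CPM, from peaks of 432 in bin 1 of mouse 1 and 391 in bin 2 of mouse 2. The peak was 17.6 and 16.6 times the lowest bin for *Cct8* and 15.1 and 24.9 times for *Cct6a*, against 2.59 and 2.41 times for *Cct6b* and 2.98 and 2.38 times for *Cct2*. Bins 9 to 12 mix cells of both elongating clusters and others, so their order should be read with care.

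**Figure D4:**
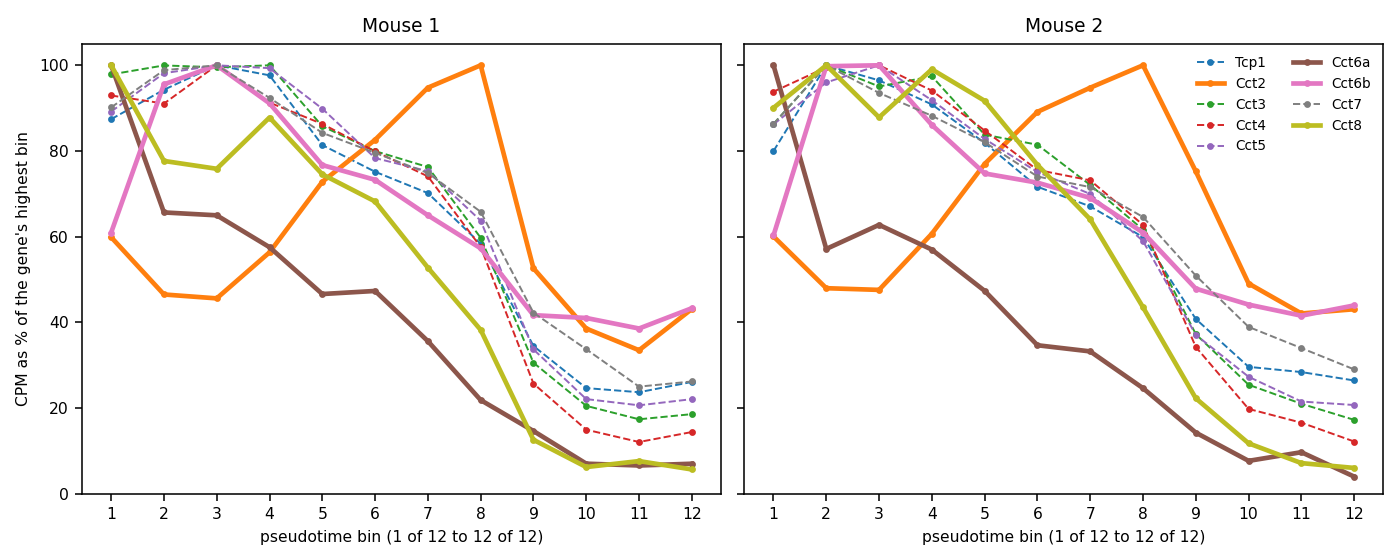
CPM of each CCT gene in 12 pseudotime bins, as a percent of the gene's own highest bin, in mouse 1 (left) and mouse 2 (right). Thick lines are *Cct2*, *Cct6a*, *Cct6b* and *Cct8*, dashed lines the other members; *Cct6a* is highest in bin 1, *Cct6b* in bin 3 and *Cct2* in bin 8 in both mice.

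Single cells were compared after thinning each to 5000 UMIs, which no cell fell short of. A cell then held UMIs of 7.18 ± 0.143 of the 8 ubiquitous subunits in early spermatocyte-like cells, 6.86 ± 0.153 in pachytene cells, 6.90 ± 0.0062 in early round and 6.31 ± 0.0052 in round spermatid-like cells (mean ± SD over n = 2 mice). In the larger elongating cluster it held 3.05 ± 0.0713 and in the smaller 4.63 ± 0.0202. Without thinning the values were 7.91, 7.88, 7.80, 7.54, 4.73 and 6.46 in the same order. Free RNA in the droplets can add UMIs and was not removed. For *Cct6b*, the Sertoli-like cells, which should lack it, held 3 UMIs in all (35.4 CPM, 95% Poisson interval 7.3 to 103), against 213 CPM or more in each of the large clusters. *Cct6a* (9.43 and 8.92 CPM) and *Cct8* (19.4 and 17.8 CPM) were far lower in the larger elongating cluster. How much of these low counts is free RNA was not tested. Within a cluster the thinned counts of *Cct6a* varied little more than counting alone gives, with a variance over mean of 0.89 to 1.19. *Cct6b* reached 1.98 and 1.38 in early spermatocyte-like cells and 0.95 to 1.26 in the later clusters.

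Likeness of profiles was measured as Pearson's r of log2(CPM + 1) over the 12 sums of cluster and mouse, as a description, since sums of a mouse and of neighbouring clusters are not independent and share their scaling. Against the mean profile of the 8 ubiquitous subunits, *Cct4* (0.998), *Cct3* (0.997) and *Cct5* (0.993) lay closest, *Cct6a* was at 0.942 and *Cct2* was the least alike of the 8 at 0.754. *Cct6b* was at 0.684. Each of the 8 is itself part of that mean profile and *Cct6b* is not, so its value cannot be ranked against theirs. Gene by gene, against the ubiquitous subunits other than *Cct2*, r ran from 0.559 (*Cct6a*) to 0.782 (*Tcp1*) for *Cct6b*. For *Cct2* against the same subunits it ran from 0.565 (*Cct6a*) to 0.728 (*Cct4*). Of 10527 rows with at least 200 UMIs, *Ubxn4* (0.998), *1700088E04Rik* (0.996), *Hspa9* (0.996), *Rbm14* (0.996) and *Rbm25* (0.995) were most like the 8-subunit profile. Most like *Cct6b* were *Necab2* (0.984), *Elof1* (0.983), *Cebpd* (0.983), *Gp5* (0.981) and *Cptp* (0.981). *Elof1* was well counted, at 1332 and 1369 CPM in pachytene cells, whereas *Cebpd* and *Gp5* did not pass 15 CPM in any large cluster.

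Genes around CCT (its helpers and clients, other chaperonin genes, tubulin folding cofactors and heat shock factors) were read from 9 lists with 51 genes. Of prefoldin, which hands clients to CCT, 1 of 6 subunits rose and 3 fell into pachytene cells, beside 25.5% and 24.6% of all genes (median log2 fold change -0.31, against 0 for all genes tested). *Pfdn2* stood at 96.4 and 82.8 CPM in pachytene cells and 16.8 and 12.2 in early round spermatid-like cells (-2.58, adjusted p = 4.77e-11), whereas *Vbp1* rose into pachytene cells (2.71, adjusted p = 0.00792) from 1.8 CPM in mouse 1 and 0 in mouse 2 to 2.6 and 4.3, a fitted value that rests on 2 UMIs in early spermatocyte-like cells, and the call was lost after thinning (adjusted p = 0.144). Of the prefoldin-like and R2TP genes, 4 of 7 rose and 1 fell in early round spermatid-like cells, beside 31.8% and 30.5% of all genes (median 0.44 against -0.03). *Uri1* stood at 6.0 and 8.6 CPM in pachytene cells and 142 and 205 CPM after (4.66, adjusted p = 6.6e-13), and *Uxt* rose from under 1 CPM (3.69, adjusted p = 6.23e-08). Phosducin-like proteins, which bind CCT, had 3 of 4 genes tested. *Txndc9* (also called PHLP3) fell in the larger elongating cluster, from 212 CPM in both mice to 17.5 and 18.5 (-2.46, adjusted p = 6.64e-12). There 1 of the 3 fell, beside 31.8% of all genes. *Pdcl3* fell into pachytene cells from 3.7 and 2.9 CPM to 0.48 and 0.40 (-2.49, adjusted p = 0.00367). This rests on few counts, 4 and 7 UMIs in early spermatocyte-like cells and 5 and 3 in pachytene cells.

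*Cct8l1*, a gene related to *Cct8*, did not follow it. It stood at 5.6 and 8.2 CPM in early round spermatid-like cells and 106 and 135 CPM in round spermatid-like cells (log2 fold change 4.34 ± 0.19, adjusted p = 3.01e-13), the step at which *Cct8* fell from 329 and 324 CPM to 152 and 155. It was at 74.9 and 85.0 CPM in the larger and 201 and 220 CPM in the smaller elongating cluster. Of the 4 chaperonin-like genes, 1 rose and 2 fell in round spermatid-like cells, beside 25.6% and 20% of all genes (median -0.77 against -0.06). *Bbs12* rose in early round spermatid-like cells from under 1 CPM (3.05, adjusted p = 4.02e-06). The mitochondrial chaperonin genes *Hspe1* (-3.02, adjusted p = 7.41e-09) and *Hspd1* (-2.87, adjusted p = 6.18e-06) both fell from early spermatocyte-like to pachytene cells, where 24.6% of all genes fell. *Hspe1* went from 58.6 and 32.2 CPM to 5.0 and 3.6, and *Hspd1* from 37.6 CPM in mouse 1 and 9.9 in mouse 2 to 2.2 and 2.4, so the size of its fall differed widely between the mice. Both rose in early round spermatid-like cells (median 1.97), where 31.8% of all genes rose.

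On the TMM scale, most tubulin genes tested rose in the larger elongating cluster while the tubulin folding cofactors mostly fell, as the 8 ubiquitous subunits did. There 9 of the 12 tubulin genes tested (16 were listed) rose and 3 fell, beside 26.5% and 31.8% of all genes (median 1.74 against -0.18 for all genes tested). *Tuba1c* stood at 3.7 and 4.0 CPM in round spermatid-like cells and 53.0 and 69.1 CPM in the larger elongating cluster (5.07, adjusted p = 1.09e-14), and *Tubb2a* had risen earlier, from under 1 CPM to 5.8 and 8.5 CPM in early round spermatid-like cells (4.18, adjusted p = 5.54e-08). Of the 4 actin genes 2 rose and 2 fell (median 0.10). *Actb* rose from 273 and 313 CPM to 1255 and 1368 (3.26, adjusted p = 1.68e-13), and *Actl7a*, a spermatid actin-related gene, had risen in early round spermatid-like cells (3.45, adjusted p = 5.83e-13). Of the 5 tubulin folding cofactors, 1 rose and 4 fell (median -1.45); *Tbce* went from 44.8 and 46.1 CPM to 1.1 and 2.2 (-3.69, adjusted p = 1.74e-09), and *Tbcd* had risen in round spermatid-like cells (1.97, adjusted p = 9.69e-06). All 3 heat shock factor genes fell (median -1.03), with *Hsf2* from 79.7 and 80.7 CPM to 2.5 and 3.2 (-3.72, adjusted p = 1.44e-11), and *Hsf5* had fallen in round spermatid-like cells (-1.07, adjusted p = 1.68e-05). On total UMIs 8 of the listed genes that were tested, not 17, were called higher in the larger elongating cluster, so not all of the 9 tubulin genes kept their call. Over all genes tested, 1826 rather than 3754 were called higher there. The genes named from these lists kept their direction and their call on total UMIs, while *Vbp1* lost its call after thinning (adjusted p = 0.144). They were named for their large called changes in the main fit, which makes a kept call likely. Not all of these named genes passed the filter on low counts after thinning or without the doublets, so those left out could not be checked there.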

How the data were processed

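Testis cells of 2 mice were profiled on the 10x Genomics platform. According to the submitters' processing notes, reads were handled with bcl2fastq 2.17.1.14 and Cell Ranger 2.0.0 on mm10, and the authors deposited 1 merged matrix of UMI counts per gene or repeat row and cell, made on a repeat-masked GRCm38 genome after reads had been downsampled to equal depth between libraries. The downsampling removes UMIs from the deeper library before any count is seen. Strand use in counting was not given in the sources used here, so overlapping genes on opposite strands may share counts.

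Cells (2552) were taken to a mouse by barcode suffix and clustered by K-means (K = 9, seed 42) on 10 principal components of 27731 rows, with 60 member and related genes left out. A cluster was named by its highest marker score with at least 3 markers at 1.5 times the level of all cells; this scoring rule, unlike the markers, was set with the data in view, and Ssxb genes served as early round spermatid markers. Pseudotime used scanpy 1.11.5. Counts were summed for 6 clusters with at least 20 cells per mouse and tested with edgeR 4.0.16 (TMM, filterByExpr). DESeq2 1.42.0, other scaling, filters and clusterings were alternatives. Scripts were tested on simulated data. Intervals cover counting error only. The members and lists were chosen with earlier results of these data known. Named genes are the members, the 2 genes per list with the largest called change in any adjacent comparison, and the 5 genes most like each profile. Same-numbered sums come from 1 animal: their deviations correlated at 0.026 to 0.271 over 15 pairs of clusters (median 0.146). The mice are separate animals, n = 2, and p-values rest on a spread shared by all clusters.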

Additional observations from a re-analysis of the deposited data

Results flagged for a closer look

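CCT UMIs above the limit that a count of 0 allows (3 UMIs) were present in the 3 small clusters, which entered no comparison. The 8 ubiquitous subunits together stood at 4253 CPM (95% Poisson interval 3768 to 4783) in the 6 spermatogonium-like cells, 2135 CPM (1835 to 2470) in the 7 Sertoli-like cells and 828 CPM (597 to 1120) in the 5 Leydig-like cells. In spermatogonium-like cells *Cct6b* held 2 of the 28 UMIs of the zeta pair, 7.14% (exact binomial 95% interval 0.877 to 23.5), and *Cct6a* 26. No group held enough samples for a check of single outlying samples.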

How the results depend on the processing

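Scaling and the few mice set the limits: with 2 animals the spread is shared across clusters, sums of elongating cells held 28 to 37 UMIs of *Cct6a*, and no alternative replaces further animals. The numbers of members called, higher and lower, in pachytene cells (6 and 1) were 1 and 3 with RLE scaling, 2 and 3 on total UMIs (added after seeing the data) and 4 and 3 with DESeq2, with 4 higher after thinning and 0 lower without a filter. Of all 14143 genes tested there, 2562 were higher and 4349 lower with DESeq2, against 3608 and 3473 in the main fit. After thinning 2453 of 10683 were higher, and without a filter 2819 of 27526 were lower. In early round spermatid-like cells the 1 lower became 5 on total UMIs, 3 with the mouse as a block and 7 without doublets. In round spermatid-like cells 1 and 3 became 0 and 8 on total UMIs, and the lower count 5 with the block and 5 with DESeq2. With DESeq2, 2263 of the 14143 genes tested were lower there, against 2834 in the main fit. In the larger elongating cluster the 1 higher became 0 on total UMIs and 0 without a filter. Without a filter 3213 of 27526 genes were higher there, against 3754 of 14143 in the main fit. In the smaller against the larger the 4 higher became 2 with RLE scaling, 2 without a filter, 2 after thinning and 7 on total UMIs, where the 1 lower became 0. Of all 14143 genes tested, 5214 were higher and 855 lower there on total UMIs, against 3321 and 2294 in the main fit. Higher in the same comparison were 2672 of 14143 with RLE scaling, 2786 of 27526 without a filter and 1739 of 10683 after thinning. The pairing by mouse changed no other call. *Cct6b* turned on total UMIs in the larger elongating cluster (0.52 to -0.58), in the smaller against the larger (-0.50 to 0.10) and in the smaller against round spermatid-like cells (0.02 to -0.48, and -0.49 without a filter); *Tcp1* turned to 0.53 in the smaller against the larger. Apart from scaling, the causes were not tested.

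With RLE scaling, 37.8% rather than 51.0% of all calls were higher in pachytene cells and 46.4% rather than 59.1% in the smaller elongating cluster; on total UMIs 30.7% rather than 53.2% were higher in the smaller against round spermatid-like cells. Calls over all genes after thinning were 0.586 to 0.699 times as many. The 8-subunit level in early round spermatid-like cells was 5680 CPM with seed 1 and 5770 CPM as a mean over cells. The *Cct6b* share after thinning was 43.7% in early spermatocyte-like, 80.4% in early round spermatid-like and 94.5% in the smaller elongating cells, and 95% in the last with seed 1 or without repeat rows. Without 1 of the mice, the log2 fold change of *Cct6b* into pachytene cells was 1.08 to 1.64. Of the related genes, on total UMIs 8 rather than 17 were higher in the larger elongating cluster, 22 rather than 14 higher and 1 rather than 7 lower in the smaller against the larger (12 lower with DESeq2), and 22 rather than 9 lower in the smaller against round spermatid-like cells. Over all 14143 genes tested, the same counts were 1826 rather than 3754 higher in the first comparison. They were 5214 rather than 3321 higher and 855 rather than 2294 lower in the second (2907 lower with DESeq2). In the third, 5502 rather than 2906 were lower.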
